A study of Mus musculus with 6 samples.

Results

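The 36 genes described here encode the machinery that brings new proteins into the endoplasmic reticulum (ER) and gives them their first modifications. They were taken by gene symbol from the 54532 rows of the deposited gene table, and every symbol matched 1 row. All 36 passed the filter on low counts and were tested, out of 17318 genes tested in all. They comprise 8 genes of the signal recognition particle (SRP) and its receptor, 7 of the SEC61 channel with SEC62, SEC63 and TRAM, 4 of the TRAP complex, 5 of signal peptidase and 12 of oligosaccharyltransferase (OST).

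The study sequenced RNA of ear skin from mice aged 3 months, in 6 libraries, 3 per group. Controls carried a floxed Ufl1 allele, either heterozygous (Ufl1f/+) or homozygous (Ufl1f/f), and no Cre. The knockout group (cKO) was Ufl1f/f with KRT14Cre/+, a Cre driven by the KRT14 promoter, which basal keratinocytes use. The labels do not say which control had which genotype, nor that the libraries stem from different animals. The p-values therefore measure only the spread between these samples. No control carried Cre, and effects of the transgene cannot be told apart from loss of Ufl1. Whole ear skin also holds cells in which this Cre is not active, such as fibroblasts, and in such bulk samples fewer cells of a type and less RNA per cell cannot be told apart.

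SRP binds the signal sequence of a protein as it leaves the ribosome and delivers the ribosome to the SRP receptor on the ER membrane. The nascent chain then passes through the SEC61 channel, with TRAP and TRAM beside it, while signal peptidase cuts off the signal sequence and OST attaches N-linked glycans to asparagine residues. Many of these subunits are known targets of the unfolded protein response, through XBP1 and ATF6. UFL1 is the ligase of the ubiquitin-like protein UFM1. Its best described substrate is the ribosomal protein RPL26 on ribosomes docked at SEC61, so the enzyme deleted here acts at the translocon itself.

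Total counts ranged from 17256339 to 20776539 per library. The targeted gene, Ufl1, had 57.9, 47.0 and 46.1 CPM (counts scaled to library size by TMM) in the controls and at 34.9, 35.6 and 38.8 CPM in the cKO. Wherever 3 values are given for a group, they are those of libraries 1, 2 and 3. For Ufl1 all cKO libraries were below all controls, with a log2 fold change of -0.47 (SE 0.14; edgeR unadjusted p = 0.00985, adjusted p = 0.778). The share of mitochondrial counts was 4.59% in control 1, while the remaining libraries had 2.28% to 2.97%. Control 1 and control 2 lay at opposite ends of the first principal component (36.9% of the variance).

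Most genes of the machinery were higher in the cKO. Of the 36, 32 had a positive log2 fold change (47.8% of all genes tested had one), and the median was 0.31, next to -0.01 over all genes tested. For 19 of the 36, all 3 cKO libraries lay above all 3 controls (5.73% of all genes tested), and for 0 all lay below (4.81%). Among the 8789 genes with a mean of at least 20 CPM, a level that 35 of the 36 reached, 49.0% had a positive log2 fold change and 6.05% had all cKO libraries above all controls, against 31 and 19 of those 35. All cKO libraries were below all controls for 3.70% of these genes and for 0 of the 35. The differences were small, with log2 fold changes of the 36 genes between -0.09 and 0.80. The value of 0.80 was that of Srp54a, a gene with few counts, and the highest among the 35 was 0.66.

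How many genes passed a test depended on the method. With edgeR's quasi-likelihood test, 0 of the 36 passed an adjusted p of 0.05 in either direction (0.0115% of all genes tested passed as higher and 0.00577% as lower). At an unadjusted p under 0.05, 13 were higher (3.38% of all genes) and 0 lower (1.95%). DESeq2 on the same counts called 4 of the 36 higher, Sec61a1, Sec61g, Ssr4 and Rpn1 (0.387% of all genes), and 0 lower (0.139%). Limma-voom called 0, and with quality weights it called 3, Sec61b, Sec61g and Ssr4 (0.167% of all genes as higher). The DESeq2 calls depended on single libraries, both in these genes and over all genes. There were 0 of the 36 without cKO 1 (0.146% of all genes were called higher) or without cKO 3 (0.152%), 1 without control 3 (Sec61a1; 0.186%) and 2 without cKO 2 (Sec61g and Ssr4; 0.762%). Without control 2 there were 6 (0.525%), and without control 1 there were 11 (1.07%). In the authors' deposited table Sec61g and Ssr4, 2 of the 36, had an adjusted p under 0.05 as higher (0.204% of 28492 genes) and 0 as lower (0.0737%).

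**Figure D1:**
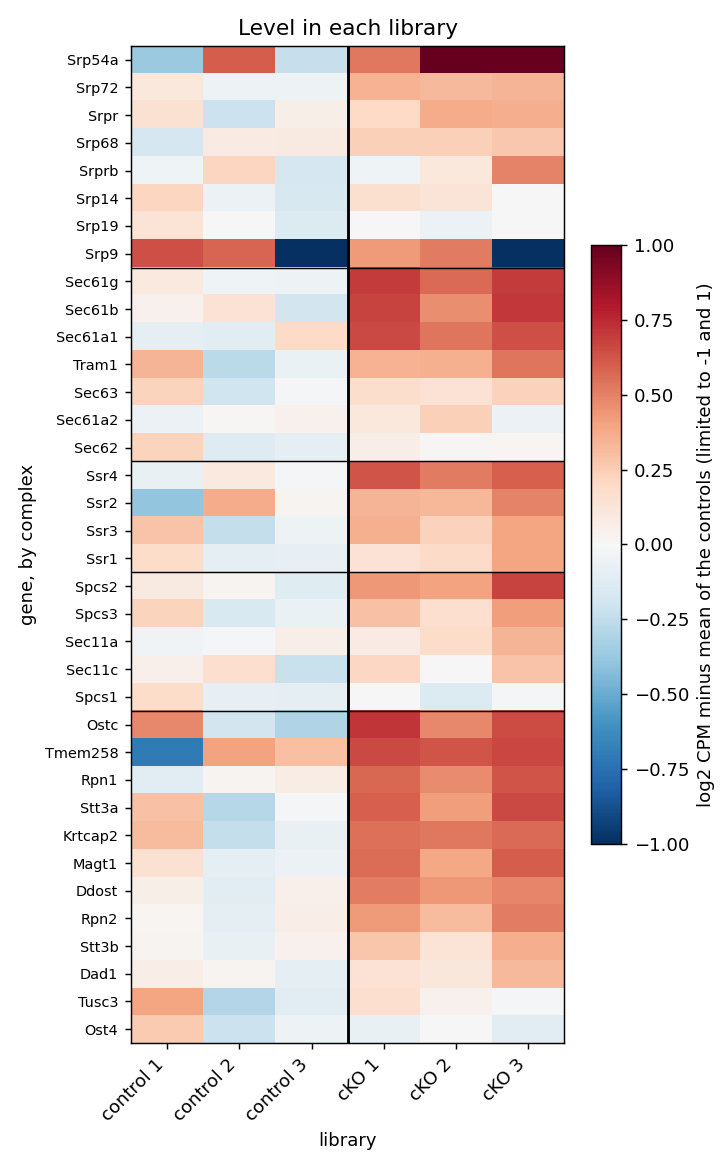
Heat map of the 36 genes (rows, grouped by complex and ordered by fold change) in the 6 libraries (columns). Colour gives log2 CPM minus the mean of the 3 controls, limited to -1 and 1; most rows of the SEC61 and OST blocks are red in all 3 cKO libraries, and Srp9 is blue in control 3 and cKO 3.

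The 3 genes of the core SEC61 channel were each higher in all cKO libraries. Sec61g, the gamma subunit that clamps the channel (ENSMUSG00000078974; mm10 chromosome 11, 16500530 to 16508484), was at 56.5, 51.2 and 51.1 CPM in the controls and at 85.9, 78.5 and 86.1 CPM in the cKO. The groups did not overlap, and the lowest cKO library was well above the highest control. The mean was 53.0 ± 3.11 CPM in controls and 83.5 ± 4.35 CPM in cKO (SD, n = 3 each). The log2 fold change was 0.66 (SE 0.12; edgeR adjusted p = 0.309, DESeq2 adjusted p = 0.00141). Sec61a1, the pore-forming alpha subunit (ENSMUSG00000030082; chromosome 6, 88503579 to 88518905), was at 116, 115 and 142 CPM in the controls and at 195, 179 and 193 CPM in the cKO. Its 3 cKO values were again above each control, and the log2 fold change was 0.61 (SE 0.14; edgeR adjusted p = 0.529, DESeq2 adjusted p = 0.0246). Sec61b, the beta subunit, was at 37.6, 40.2 and 32.0 CPM in the controls and at 58.1, 50.1 and 59.5 CPM in the cKO. Here too the groups were apart, at 0.61 (SE 0.14; edgeR adjusted p = 0.568, DESeq2 adjusted p = 0.0666). The 3 subunits of the channel thus had estimates of 1.52-fold to 1.58-fold.

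The partners of the channel differed less between the groups. Tram1, a membrane protein that contacts nascent chains beside SEC61, was at 193, 126 and 145 CPM in the controls and at 194, 195 and 220 CPM in the cKO. All cKO libraries were above the controls, but control 1 lay just under cKO 1, and the log2 fold change was 0.39 (SE 0.18; edgeR unadjusted p = 0.0569). Sec62 and Sec63, which serve the post-translational entry of proteins and the recruitment of BiP to the channel, had log2 fold changes of 0.02 (95% interval -0.30 to 0.35) and 0.17 (95% interval -0.15 to 0.50). Their libraries overlapped, with Sec62 highest in control 1 at 209 CPM. Sec61a2, the second alpha subunit gene, was at 19.1, 20.1 and 20.5 CPM in the controls and at 21.4, 23.5 and 19.1 CPM in the cKO. That amounts to 0.10 (95% interval -0.24 to 0.45), and 19.9% of its exon bases are shared with Nudt5 on the opposite strand. Whether Sec62, Sec63 or Sec61a2 differ in fold change from the core subunits was not tested in the count model.

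**Figure D2:**
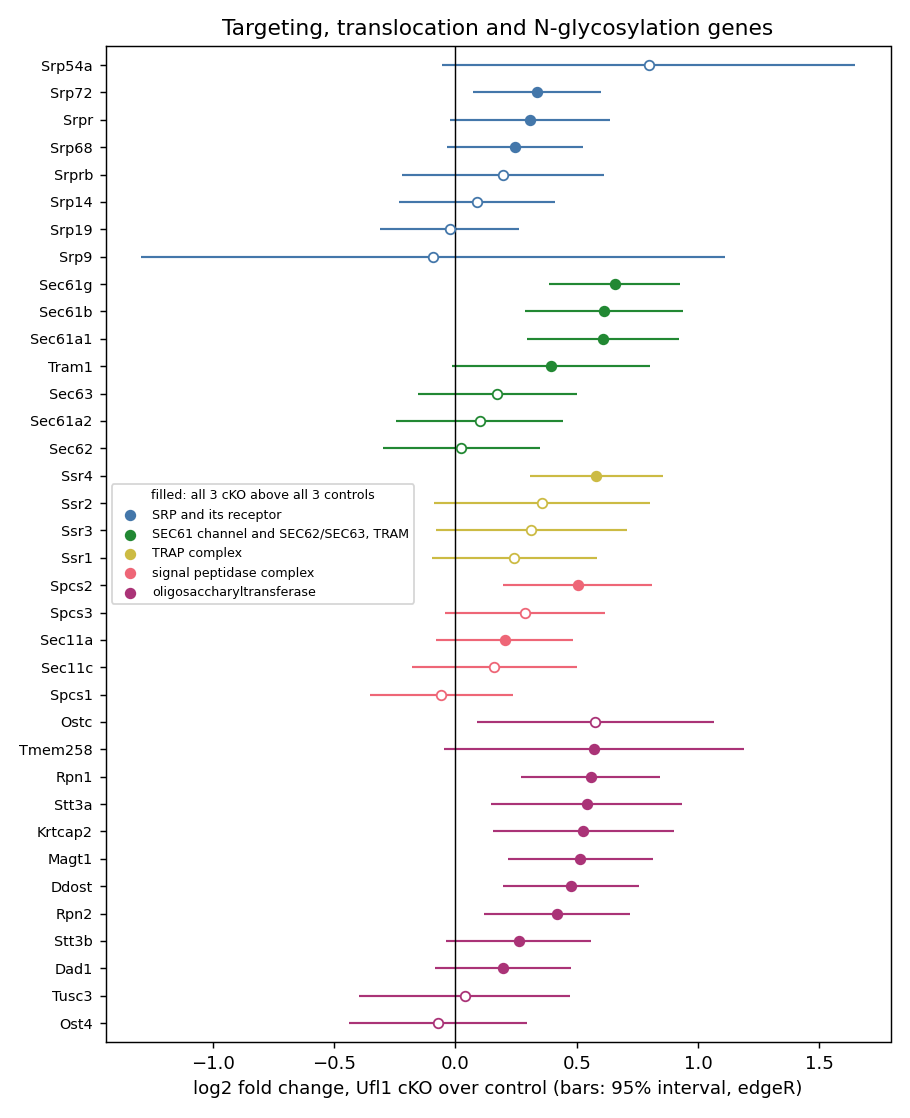
Log2 fold change of cKO over control (x axis) for each of the 36 genes (rows, coloured by complex), with 95% intervals from edgeR as bars. Filled points mark the 19 genes whose 3 cKO libraries all lay above all 3 controls; the points of Sec61g, Sec61b and Sec61a1 sit at 0.61 to 0.66 and those of Sec62, Srp19, Spcs1 and Ost4 near 0.

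In the TRAP complex, which binds the channel and helps some signal sequences to enter it, all 4 genes had positive log2 fold changes. Ssr4, the delta subunit (ENSMUSG00000002014; chromosome X, 73787028 to 73790830), was at 110, 123 and 114 CPM in the controls and at 179, 165 and 175 CPM in the cKO. The 2 groups were separated by a gap larger than the range within either, with means of 116 ± 7.04 and 173 ± 6.97 CPM (SD, n = 3 each). Its log2 fold change was 0.58 (SE 0.12; edgeR adjusted p = 0.464, DESeq2 adjusted p = 0.00368). Ssr2, the beta subunit, was at 59.6, 102 and 79.8 CPM in the controls and at 99.2, 98.7 and 111 CPM in the cKO. Control 2 lay among the cKO libraries and control 1 was the lowest of all, so that its log2 fold change of 0.36 (SE 0.19) became 0.18 without control 1 and 0.56 without control 2. Of the exon bases of Ssr2, 12.8% are shared with Gm10704 on the opposite strand, which had up to 89 counts. Ssr3 (0.31, SE 0.17) and Ssr1 (0.24, SE 0.15), the gamma and alpha subunits, also overlapped between the groups through control 1, and Ssr3 was at 0.20 without control 2.

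Signal peptidase removes the signal sequence through 1 of 2 alternative catalytic subunits, SEC11A or SEC11C, held by the SPCS proteins. Spcs2, a subunit that binds the channel, was at 115, 111 and 100 CPM in the controls and at 146, 143 and 173 CPM in the cKO. All cKO libraries were above the controls, and the log2 fold change was 0.50 (SE 0.13; edgeR unadjusted p = 0.0054, adjusted p = 0.650). Spcs3, which is needed for the activity of the enzyme, was at 110, 85.2 and 90.4 CPM in the controls and at 116, 106 and 127 CPM in the cKO. Control 1 lay between cKO 2 and cKO 1, and the log2 fold change was 0.29 (SE 0.14; edgeR adjusted p = 0.953). Spcs1 was at -0.06 (95% interval -0.35 to 0.24), and 16.3% of its exon bases are shared with Glt8d1 on the opposite strand.

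The 2 catalytic genes of signal peptidase were close to their control levels. Sec11a was at 53.6, 54.1 and 57.0 CPM in the controls and at 58.0, 62.2 and 69.4 CPM in the cKO. Although the groups did not overlap, the difference was 0.20 on the log2 scale (SE 0.12; edgeR unadjusted p = 0.135). Sec11c was at 63.7, 69.2 and 52.8 CPM in the controls and at 71.0, 61.4 and 75.2 CPM in the cKO, with cKO 2 below 2 of the controls and a log2 fold change of 0.16 (SE 0.15). Without control 3 it was at 0.06, and Sec11a was at 0.13 without cKO 3.

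Oligosaccharyltransferase had the highest median of the 5 groups, 0.50 over 12 genes, of which 11 were positive (47.8% of all genes tested). All cKO libraries were above all controls for 9 (5.73%), and 7 passed an edgeR unadjusted p of 0.05 as higher (3.38%). OST exists in 2 forms. The form with the catalytic subunit STT3A is attached to SEC61 and glycosylates proteins as they enter, and the form with STT3B modifies sites that the first has passed over. Stt3a was at 147, 98.8 and 120 CPM in the controls and at 182, 160 and 190 CPM in the cKO. The cKO libraries were all higher, by 0.54 on the log2 scale (SE 0.17; edgeR unadjusted p = 0.013, adjusted p = 0.811). Stt3b was at 190, 178 and 193 CPM in the controls and at 226, 206 and 240 CPM in the cKO. It too did not overlap, with a smaller estimate of 0.26 (SE 0.13; edgeR unadjusted p = 0.0784).

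Subunits shared by both forms include the ribophorins. Rpn1, ribophorin I (ENSMUSG00000030062; chromosome 6, 88084482 to 88105304), was at 129, 142 and 146 CPM in the controls and at 207, 192 and 214 CPM in the cKO. All cKO libraries were higher, with a log2 fold change of 0.56 (SE 0.12; edgeR adjusted p = 0.529, DESeq2 adjusted p = 0.0113). Ddost, the subunit known as OST48, was at 145, 128 and 144 CPM in the controls and at 198, 188 and 194 CPM in the cKO, and Rpn2 at 203, 188 and 209 CPM and at 269, 249 and 284 CPM. For both genes the 3 cKO libraries were above each control, with log2 fold changes of 0.48 (SE 0.12; DESeq2 adjusted p = 0.0553) for Ddost and 0.42 (SE 0.13; DESeq2 adjusted p = 0.196) for Rpn2.

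The small shared subunits were uneven. Tmem258 was at 11.8, 25.5 and 23.7 CPM in the controls and at 30.4, 29.8 and 30.5 CPM in the cKO. No control reached a cKO library, but control 1 had less than the other controls, and the log2 fold change of 0.57 (SE 0.27) was 0.29 without control 1. Dad1, first named as a defender against cell death, was at 90.0, 87.9 and 80.7 CPM in the controls and at 95.3, 93.1 and 108 CPM in the cKO. The groups were just apart, at 0.20 (SE 0.12; edgeR unadjusted p = 0.144) and at 0.13 without cKO 3. Ost4 was at -0.07 (95% interval -0.44 to 0.29), and 53.2% of its exon bases lie opposite Agbl5, which had up to 217 counts.

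Subunits particular to 1 form of OST were also measured. Krtcap2 and Ostc belong to the STT3A form and link it to the channel. Of the exon bases of Krtcap2, 15.7% are shared with Trim46 on the opposite strand, which had up to 287 counts. Krtcap2 was at 48.4, 32.9 and 37.0 CPM in the controls and at 57.0, 56.0 and 57.5 CPM in the cKO. The cKO libraries were nearly equal and above each control, with a log2 fold change of 0.53 (SE 0.16; edgeR unadjusted p = 0.0113, adjusted p = 0.798). Ostc was at 74.1, 46.8 and 43.1 CPM in the controls and at 87.1, 74.0 and 83.2 CPM in the cKO, so control 1 was level with cKO 2. Its log2 fold change of 0.58 (SE 0.21; edgeR unadjusted p = 0.0263) was 0.85 without control 1.

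MAGT1 and TUSC3 are alternative oxidoreductase subunits of the STT3B form. Magt1, on the X chromosome, was at 63.9, 53.7 and 55.3 CPM in the controls and at 84.8, 75.0 and 87.3 CPM in the cKO. The groups did not overlap, and the log2 fold change was 0.52 (SE 0.13; edgeR unadjusted p = 0.00408, adjusted p = 0.642). Tusc3 was at 51.8, 32.2 and 36.5 CPM in the controls and at 44.2, 40.5 and 39.0 CPM in the cKO. Its control libraries spanned all of the cKO values, and the log2 fold change was 0.04 (95% interval -0.40 to 0.47).

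In SRP and its receptor the median over the 8 genes was 0.22, and 6 were positive (47.8% of all genes tested). For 3 of the 8 the cKO libraries were all above the controls (5.73% of all genes tested). Srp72, which with Srp68 forms the core of the protein-translocating domain, was at 118, 106 and 106 CPM in the controls and at 140, 138 and 139 CPM in the cKO. Its cKO libraries were close together and above each control, with a log2 fold change of 0.34 (SE 0.11; edgeR unadjusted p = 0.0189, adjusted p = 0.857). Srp68 was at 65.8, 78.4 and 78.6 CPM in the controls and at 87.5, 87.1 and 89.4 CPM in the cKO. It showed the same separation at 0.24 (SE 0.12; edgeR unadjusted p = 0.0797), and 0.16 without control 1.

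The receptor has 2 subunits. Srpr, the alpha subunit that binds SRP, was at 169, 131 and 158 CPM in the controls and at 174, 197 and 196 CPM in the cKO. Control 1 was close under cKO 1, and the log2 fold change was 0.31 (SE 0.14; edgeR unadjusted p = 0.0643). Srprb, the membrane-bound beta subunit, overlapped between the groups (0.20, SE 0.18) and was at 0.03 without cKO 3. Srp14 (0.09, 95% interval -0.23 to 0.41) and Srp19 (-0.02, 95% interval -0.31 to 0.26), which bind the RNA of the particle, were not told apart from 0.

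A pair of SRP genes stood out for other reasons. Srp9, the partner of SRP14, was at 110, 106 and 30.1 CPM in the controls and at 94.6, 101 and 35.1 CPM in the cKO. One library of each group was thus far below the other libraries of that group, and the fold change carried a wide 95% interval of -1.29 to 1.11. Srp54a, the subunit that binds the signal sequence, had only 1.07, 2.11 and 1.18 CPM in the controls and 2.01, 2.78 and 2.83 CPM in the cKO. It has the near-identical copies Srp54b and Srp54c, so its share of the reads is uncertain, and the log2 fold change of 0.80 (SE 0.37; edgeR unadjusted p = 0.0629) rested on 18 to 54 counts per library. The copies, which had more counts in most libraries, were not higher, with Srp54b at -0.81 (SE 0.91) and Srp54c at -0.04 (SE 0.20).

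Levels per gene length (FPKM) show how the subunits compare with each other. In the controls they ran from 0.271 ± 0.104 FPKM for Srp54a (reads that fit several copies may be missing there) to 65.3 ± 12.5 FPKM for Ssr3 (SD, n = 3). Sec61a1 was at 18.3 ± 2.29, Sec61g at 21.3 ± 1.33 and Sec61b at 28.5 ± 3.12 FPKM in the controls. In the cKO these levels were 27.9 ± 1.28, 33.7 ± 1.76 and 43.7 ± 3.99 FPKM, in the same order. In both groups the most abundant OST gene was Ddost, at 65.1 ± 4.76 FPKM in the controls and 90.7 ± 2.41 FPKM in the cKO (SD, n = 3 each). Sec61a2 was the lowest of the SEC61 genes, at 4.31 ± 0.148 and 4.63 ± 0.471 FPKM. Gene lengths in the table span all annotated exons, so the level of a gene whose main transcript is shorter is understated.

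**Figure D3:**
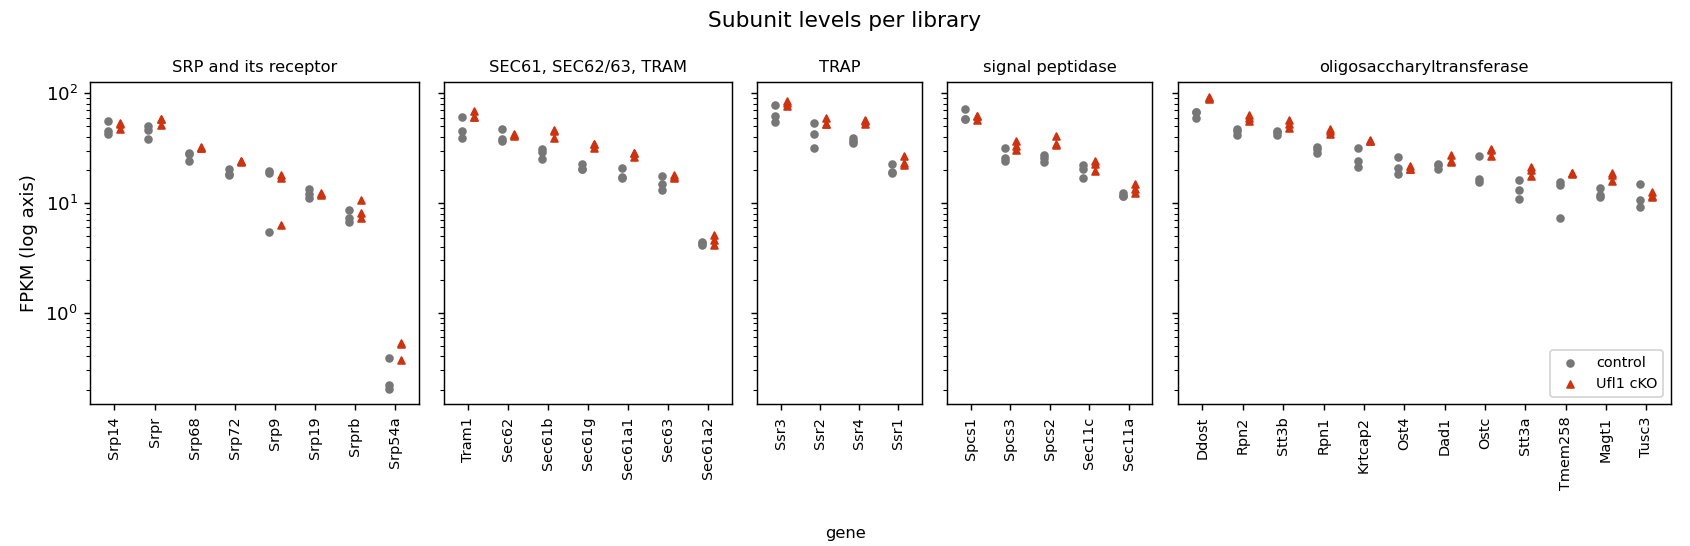
FPKM on a log axis for each of the 36 genes (x axis, by complex, ordered by the control mean), with 1 point per library, grey circles for the 3 controls and red triangles for the 3 cKO. Ssr3 and Ddost are the highest genes in the controls and Srp54a the lowest, and Srp9 has 1 low library in each group.

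Ratios within a library compared subunits that replace each other. Stt3a was present at 0.365, 0.262 and 0.292 times the FPKM of Stt3b in the controls and at 0.379, 0.368 and 0.373 times in the cKO. The ratio was higher in each cKO library, by 0.30 on the log2 scale, although control 1 was close to the cKO. Tusc3 relative to Magt1 was at 1.10, 0.816 and 0.899 in the controls and at 0.709, 0.735 and 0.608 in the cKO. This ratio was lower in each cKO library, by a log2 difference of -0.45. Sec61a2 relative to Sec61a1 was at 0.242, 0.258 and 0.213 in the controls and at 0.162, 0.193 and 0.145 in the cKO, also lower throughout, with a log2 difference of -0.52. The ratio of Sec11c to Sec11a overlapped (log2 difference -0.04). Two-sided exact permutation tests gave p = 0.1 for the first 3 ratios, the smallest that 3 libraries against 3 allow, and p = 0.9 for Sec11c to Sec11a. After adjustment over the 4 pairs the exact values were 0.133, 0.133, 0.133 and 0.9.

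**Figure D4:**
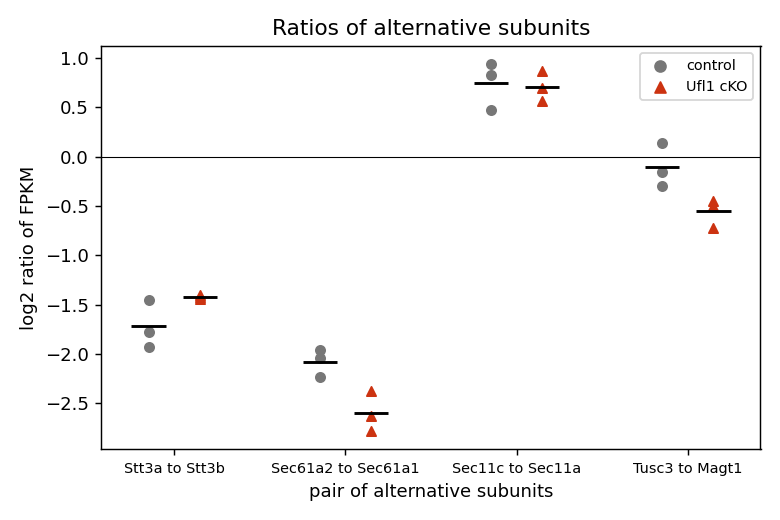
Log2 ratio of FPKM (y axis) for 4 pairs of alternative subunits (x axis), with 1 point per library (grey circles control, red triangles cKO) and a line at each group mean. The groups are apart for Stt3a to Stt3b, Sec61a2 to Sec61a1 and Tusc3 to Magt1, and overlap for Sec11c to Sec11a.

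Promoter sequences from RefSeq (build GRCm38.p6, 250 bases before to 50 after a start site) were matched for 27 of the 36 genes. They were searched on both strands for 3 elements bound in the unfolded protein response, the ER stress response element ERSE (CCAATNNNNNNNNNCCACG), the element ERSE-II (ATTGG and CCACG with 1 base between them) and the UPRE core (TGACGTGG). The letters were matched exactly, and ERSE and ERSE-II share the letters CCACG. ERSE was found in 0 of the 27 genes and in 0.137% of all 27025 genes with such promoters (32851 promoters). The UPRE core was found in 0 of the 27 and in 0.714% of all these genes. ERSE-II was found in 1 of the 27, Krtcap2, and in 0.0444% of all these genes. In the list of ER chaperones and ER-associated degradation, 7 of 15 matched genes held an ERSE, Hspa5 among them. That list was drawn up as targets of the unfolded protein response, so its count is not a neutral comparison for the 27 genes. Promoters of Krtcap2, of Sec61g and Ssr4 (the members with the smallest p) and of Hspa5 are printed 5′ to 3′ on the strand of the gene, with an ERSE or ERSE-II in capitals. The windows are chr3:89246223-89246522 (plus strand), chr11:16508435-16508734 (minus strand), chrX:73786773-73787072 (plus strand) and chr2:34771840-34772139 (plus strand).
Krtcap2: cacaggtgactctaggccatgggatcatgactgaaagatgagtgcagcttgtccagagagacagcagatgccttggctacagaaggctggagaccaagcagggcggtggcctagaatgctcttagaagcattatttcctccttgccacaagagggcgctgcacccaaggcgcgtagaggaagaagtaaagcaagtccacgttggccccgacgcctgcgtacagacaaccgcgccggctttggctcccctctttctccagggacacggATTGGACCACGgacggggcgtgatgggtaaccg
Sec61g: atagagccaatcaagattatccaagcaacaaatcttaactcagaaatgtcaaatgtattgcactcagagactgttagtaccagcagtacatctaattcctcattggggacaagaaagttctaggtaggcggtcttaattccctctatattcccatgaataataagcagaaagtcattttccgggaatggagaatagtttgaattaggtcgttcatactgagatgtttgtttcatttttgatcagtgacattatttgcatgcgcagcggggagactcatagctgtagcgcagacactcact
Ssr4: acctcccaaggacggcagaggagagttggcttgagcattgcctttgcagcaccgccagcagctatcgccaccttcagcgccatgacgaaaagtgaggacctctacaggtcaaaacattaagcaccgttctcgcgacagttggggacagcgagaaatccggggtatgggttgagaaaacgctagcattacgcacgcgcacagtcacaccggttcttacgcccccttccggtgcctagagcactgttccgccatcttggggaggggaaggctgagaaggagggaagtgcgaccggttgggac
Hspa5: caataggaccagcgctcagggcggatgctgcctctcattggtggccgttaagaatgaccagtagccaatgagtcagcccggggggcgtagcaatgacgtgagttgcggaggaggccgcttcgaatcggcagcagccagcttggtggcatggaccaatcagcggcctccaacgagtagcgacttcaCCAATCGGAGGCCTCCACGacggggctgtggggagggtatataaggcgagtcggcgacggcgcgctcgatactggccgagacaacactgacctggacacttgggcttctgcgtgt
RefSeq gives Krtcap2 a second start site, whose window (chr3:89246188-89246487) holds none of the 3 elements. In the window printed, the match of Krtcap2 begins 17 bases after the start site, and that of Hspa5 begins 65 bases before it, while the windows of Sec61g and Ssr4 hold none of the 3 elements. A match is a description of the letters, and a window without one says nothing about binding elsewhere.

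Other genes of the pathway were taken from lists chosen with earlier results of these data known. Among 18 other translocon-associated genes, the median log2 fold change was 0.08, and 12 were positive (47.8% of all genes tested). All cKO libraries were above the controls for 4 (5.73%), and DESeq2 called 1, Serp1, as higher (0.387%). Serp1, a small protein of the ribosome-bound translocon, was at 255, 201 and 212 CPM in the controls and at 331, 320 and 390 CPM in the cKO. Its groups were apart at 0.64 (SE 0.16; edgeR adjusted p = 0.625, DESeq2 adjusted p = 0.0423). Hm13, the signal peptide peptidase that degrades cut signal sequences, was at 0.47 (SE 0.12; edgeR adjusted p = 0.650), Rrbp1, a ribosome-binding protein of the ER, at 0.35 (SE 0.15) and Rab5if at 0.27 (SE 0.14). For these 3 genes too the cKO libraries were all above the controls, though Rab5if was at 0.17 without control 1.

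Genes of other routes of insertion into the ER membrane had a median near 0. The 18 genes of the EMC and GET routes, with Tmem208 of the SND route among them, had a median of -0.06. Of these, 8 were positive (47.8% of all genes tested). In either direction, 0 were called by edgeR or DESeq2. An edgeR unadjusted p under 0.05 was reached by 0 as higher (3.38% of all genes tested) and 0 as lower (1.95%). For 0 of the 18 all cKO libraries were above the controls (5.73% of all genes tested), and for 2, Emc8 and Get1, all were below (4.81%). Emc8, a subunit of the ER membrane protein complex, was at 50.6, 53.7 and 55.7 CPM in the controls and at 41.2, 49.2 and 46.0 CPM in the cKO (-0.23, SE 0.12; edgeR adjusted p = 0.970). Emc9 was at -0.66 (SE 0.39) with control 2 highest at 81.8 CPM, and at -0.07 without that library, while Get1 was at -0.28 (SE 0.18) and Emc7 at -0.16 (SE 0.13). Get1 was at -0.11 without control 2 and Emc7 at -0.08 without control 1.

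Genes that build the glycan which OST transfers had a median of 0.04 over 23, of which 15 were positive (47.8% of all genes tested). An edgeR unadjusted p of 0.05 was passed by 2 as higher (3.38%), and 0 were called by edgeR or DESeq2. All cKO libraries were above the controls for 4 (5.73%) and below them for 1 (4.81%). Dpagt1, the first enzyme of the route, was at 28.5, 28.9 and 27.2 CPM in the controls and at 37.1, 32.8 and 39.1 CPM in the cKO, a log2 fold change of 0.37 (SE 0.13; edgeR unadjusted p = 0.0228, adjusted p = 0.857). Alg12, a mannosyltransferase of the route, was at 0.53 (SE 0.21), Dhdds, of dolichol synthesis, at 0.22 (SE 0.12) and Dpm3, a subunit of dolichol phosphate mannose synthase, at -0.26 (SE 0.15). The first 3 of these had all cKO libraries above the controls and Dpm3 had all below, with an estimate of -0.14 without control 2.

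Genes acting on the glycoprotein after OST had a median of 0.21 over 11. For 7 the cKO libraries were all above the controls (5.73% of all genes tested), and DESeq2 called 2 as higher, Lman1 and Calr (0.387%). Lman1, a cargo receptor for glycoproteins leaving the ER, was at 89.0, 83.3 and 84.9 CPM in the controls and at 133, 128 and 137 CPM in the cKO. The difference was 0.63 on the log2 scale (SE 0.11; edgeR adjusted p = 0.309, DESeq2 adjusted p = 0.0005). The lectin chaperones Calr and Canx were at 0.72 (SE 0.15) and 0.42 (SE 0.14), and Mlec, a lectin that works with OST, at 0.40 (SE 0.12).

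ER chaperones and degradation factors, listed as targets of the unfolded protein response, had the highest median of the lists, 0.62 over 17 genes. All were positive (47.8% of all genes tested), 12 had all cKO libraries above the controls (5.73%) and DESeq2 called 8 as higher (0.387%). Hspa5, the chaperone BiP that also seals and pulls at the SEC61 channel, was at 1.15 (SE 0.15; edgeR adjusted p = 0.105), and Sdf2l1, Pdia6 and Derl3 were at 1.50 (SE 0.23), 0.81 (SE 0.13) and 2.39 (SE 0.42). The estimate of Derl3 rested on few counts, 7, 15 and 13 in the controls and 43, 83 and 50 in the cKO. None of the 36 targeting, translocation and OST genes had an estimate as high as Hspa5. Whether the lists differ was not tested. In the ufmylation list the median was 0.01 over 10 genes, with Ufc1, the conjugating enzyme, at 0.25 (SE 0.12) and Ufsp1, a protease of the pathway, at -0.38 (SE 0.21), or -0.19 without control 2. Rpl26 was at -0.04 (SE 0.23), with control 1 highest at 1227 CPM.

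**Figure D5:**
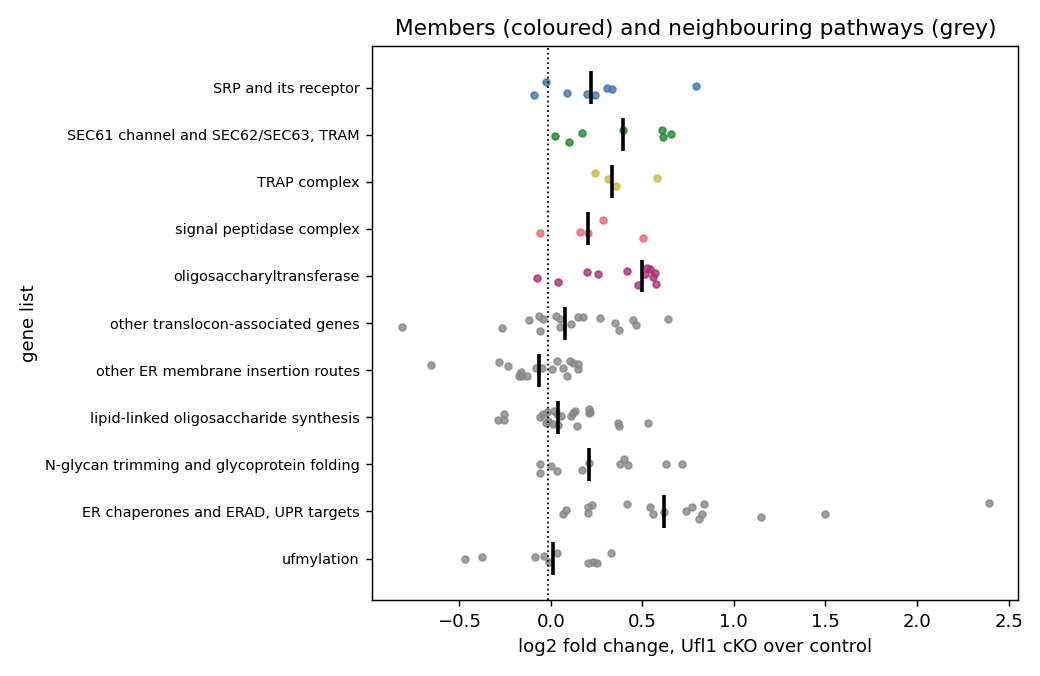
Log2 fold change of cKO over control (x axis) for each gene of the 5 complexes (coloured) and of 6 neighbouring lists (grey), with a black bar at the median of each list and a dotted line at the median of all genes tested (-0.01). OST (0.50) and SEC61 (0.39) have the highest medians among the 5 complexes, below that of the ER chaperones (0.62).

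Markers of the cells in ear skin were summed in CPM of the total count. Markers of fibroblasts, which secrete much protein, were at 9916 to 24647 CPM in controls and 20480 to 21421 CPM in cKO, with control 2 lowest. Of the 6 genes, 5 had positive log2 fold changes (47.8% of all genes tested), and 1 was above all controls in each cKO library (5.73%). Basal keratinocyte markers were at 2826 to 10489 CPM in controls and 5105 to 6853 CPM in cKO, and macrophage markers at 725 to 1527 and 1201 to 1503 CPM, with 0 of 6 genes apart in each list. Log2 fold changes were positive for 1 of 6 basal keratinocyte genes and for 6 of 6 macrophage genes. Melanocyte markers were at 40.3 to 59.7 CPM in controls and 159 to 247 CPM in cKO, and 5 of 5 genes had all cKO libraries above all controls. Neutrophil markers were at 6.78 to 76.3 CPM in controls and 42.9 to 409 CPM in cKO, with cKO 1 highest, and came mostly from S100a8 and S100a9 in the cKO. Of the 6 genes, 4 passed the filter on low counts, each with a positive fold change. For 1 of them, Cxcr2, the groups did not overlap. Ly6g had 0, 1 and 2 counts in the controls and 0 in each cKO library. Markers of plasma cells, which are rich in this machinery, were at 228 to 338 CPM in controls and 304 to 350 CPM in cKO, mostly from Sdc1, which keratinocytes express too. Of the 8 genes, 4 passed the filter on low counts, all 4 had positive fold changes, and for 1, Derl3, all cKO libraries were above all controls. Derl3 is also in the list of ER chaperones and degradation factors. Jchain had 1 to 11 counts per library and Mzb1 4 to 12, while Igha reached 51 and Igkc 31 counts in cKO 3, with the groups overlapping for each. The part of any of these cell types in the values of the 36 genes, fibroblasts and macrophages included, was not tested.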

How the data were processed

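Raw counts (whole numbers) and FPKM values of each gene were deposited by the authors in 1 table, per the file headers. Its other columns hold the authors' normalized mean count per group (a signal), a log2 fold change from the authors, and p-values with adjusted p-values from the authors, without the name of a test. The submitters' processing notes name HISAT2, HTSeq and mm10. The tool versions and the strand setting are not given in the sources used here. Reads of overlapping genes on opposite strands may therefore have been mixed. Names, lengths and coordinates are those of the deposited table, and exon overlaps come from GENCODE M21 (GRCm38).

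Counts were scaled by TMM, filtered with filterByExpr and tested two-sided with edgeR 4.0.16 (quasi-likelihood, robust, R 4.3.3) for 3 cKO against 3 control libraries, with Benjamini-Hochberg adjustment over 17318 genes. Standard errors are the log2 fold change over the root of F. DESeq2 1.42.0, limma 3.58.1 (voom, and trend on log2 FPKM), other scalings and filters, a replicate block and leaving out each library were alternatives. The tests were also run on simulated counts with planted changes, whose recovery is not reported here. How often a small difference would be missed is therefore not stated. Members and lists were chosen with earlier results of these data known. Every library is given for members called by edgeR or DESeq2, the 2 members with the smallest p per complex, those whose groups did not overlap and 4 paralogue pairs. Srp9 and Ostc were added after their values were seen, as were Serp1, Emc8, Dpagt1 and Lman1 with all libraries. Up to 4 genes with the smallest p are named per other list, except for 1 gene that is not reported here. Canonical marker lists not printed in the text (suprabasal, sebocyte, T cell, cartilage, muscle, Schwann) overlapped between groups in their summed level, except Schwann cell markers, which were at 1106 to 1491 CPM in controls and 761 to 1021 CPM in cKO. In the order named, 5, 0, 4, 3, 2 and 0 of 6 genes had positive log2 fold changes (47.8% of all genes tested). All cKO libraries were below all controls for 1 sebocyte gene (Scd3, at -3.66, SE 0.63), 1 T cell gene and 2 Schwann genes (4.81% of all genes tested).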

Additional observations from a re-analysis of the deposited data

How the results depend on the processing

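The median log2 fold change of the 36 genes stayed positive under every alternative, between 0.28 and 0.36, and the number with all cKO libraries above all controls was 16 with upper-quartile scaling (4.72% of all genes) and 19 with the other scalings, filters and tests. It was 19 (without control 3; 9.59% of all genes) to 27 (without control 1; 13.5%) with 1 library left out, where fewer libraries have to be apart. Members called higher were 0 in edgeR, 4 in DESeq2 and 3 in limma-voom with quality weights. With quality weights 24 instead of 13 were higher at an unadjusted p under 0.05. The share of all genes at that threshold was not counted for this setting, so the 24 cannot be set against it. DESeq2 with 1 library left out, chosen after seeing the data, called 11 members of 190 genes (without control 1), 6 of 93 (without control 2), 1 of 33 (without control 3), 0 of 26 and of 27 (without cKO 1 or cKO 3) and 2 of 136 (without cKO 2), in place of 4 of 67. Members with all cKO libraries below all controls ranged from 0 to 1 when 1 library was left out. The share of all genes below was not counted for these fits. The estimates of 17 members moved by over 1.5 times or changed sign with 1 library left out. Log2 fold changes near 0 changed sign, and the cause was not tested: Srp9 ranged from -0.49 to 0.26 with 1 library left out and was 1.03 with quality weights, Srp19 from -0.091 to 0.042 (0.086 with quality weights), the log2 fold change of Sec62 from -0.039 to 0.14 (-0.00944 with upper-quartile scaling), Spcs1 from -0.11 to 0.032 (0.0245 with quality weights), Ost4 from -0.17 to 0.062 and Tusc3 from -0.10 to 0.26. The log2 fold change of Rpl26 ranged from -0.17 to 0.22 and was 0.17 with quality weights and 0.00205 and 0.0021 on log2 FPKM with a pseudocount of 1 and 0.1. The log2 ratio difference of Sec11c to Sec11a ranged from -0.17 to 0.059. With the replicate number as a replicate block, 0 members were called, with a median of 0.32. At an unadjusted p under 0.05, 13 members were higher, and the share of all genes was not counted there. Over all genes, 10 were called higher and 2 lower with this block, in place of 2 and 1. Over all genes, the deviations of same-numbered libraries correlated at r = 0.22, -0.04 and -0.04, so the numbers were not taken to pair the samples, and only control 1 correlated best with its own number. Single genes were low in both libraries of a number, Srp9 in number 3 and Srp54b in number 2.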

Other observations

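The other copies of the SRP54 gene varied between libraries of one group. Srp54b was at 19.7, 2.27 and 7.94 CPM in the controls and at 8.08, 0.611 and 8.28 CPM in the cKO, so that control 2 and cKO 2 were the low libraries. Srp54c was steadier, at 16.8, 12.7 and 19.9 CPM in the controls and at 14.9, 17.4 and 15.6 CPM in the cKO. Reads that fit several copies of this family may have been counted for one copy or for none. How such reads were treated was not stated in the labels.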
